A study of Mus musculus with 2 samples.

Results

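The Btg, Tob and Zfp36 genes encode small families of mRNA decay factors. They were examined in mouse bone marrow progenitors transformed by an inducible Hoxa9, with Hoxa9 on and after its withdrawal. The 8 genes (Btg1, Btg2, Btg3, Tob1, Tob2, Zfp36, Zfp36l1 and Zfp36l2) were taken by their gene symbols from the 23235 rows of the authors' deposited table. The related genes Btg4 and Zfp36l3 were listed at 0 in both conditions and were not tested. The cells were lineage-depleted bone marrow progenitors of C57B6 mice that carried 2 MIGR1 retroviruses, MIGR1-HA-Hoxa9-ER for the inducible homeobox protein and, for its partner, MIGR1-Flag-Meis1, and they were kept in IL3. In both conditions the cells had been transformed in 100 nM 4-hydroxytamoxifen (4OHT), a ligand that holds the Hoxa9 fusion to the estrogen receptor (ER) hormone-binding domain in the nucleus. After washing they were grown for 72 h either in 4OHT or in ethanol (EtOH), its solvent, in which nuclear Hoxa9-ER is lost. Flag-Meis1 was present in both conditions, and no untransduced cells were part of the comparison.

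An mRNA is commonly degraded by first shortening its poly(A) tail, then removing its cap or digesting it from the 3' end. BTG and TOB proteins carry a shared amino-terminal domain that binds the Caf1 deadenylases (Cnot7 and Cnot8) of the CCR4-NOT complex. Several of them slow cell division when overexpressed, and Btg2 is a classical early response gene of differentiation and a target of p53. Zfp36 (tristetraprolin) and its relatives Zfp36l1 and Zfp36l2 are CCCH zinc finger proteins that bind AU-rich sequences in the 3' untranslated region (UTR) of mRNAs, many of them for cytokines, and bring CCR4-NOT to them. In blood cells both families are known for restraint of growth and of inflammatory mRNAs.

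RNA sequencing values were given as FPKM, fragments scaled to transcript length and to the number mapped, with 1 value per gene in each of the 2 conditions. Each value stood for 2 biological replicates, and how they were combined is not known here. They therefore carry no replicate error and no test of this work was possible. Calls are those of the Cuffdiff test in the authors' deposited table, where a gene is called if its q-value (the p-value adjusted over 11865 tested rows) is 0.05 or less. Changes are log2((FPKM EtOH + 1)/(FPKM 4OHT + 1)), a scale that understates the change of genes of low level. The FPKM of all rows summed to 544802 in 4OHT and 591496 in EtOH.

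Of the 8 genes, 5 rose after loss of nuclear Hoxa9 (Zfp36l1, Btg2, Zfp36, Tob1 and Btg1), 0 fell and 3 did not pass (Btg3, Tob2 and Zfp36l2) in the authors' deposited table. The 5 called genes are 62.5% of the 8, where 22.5% of all tested rows were called, 12% as higher and 10.5% as lower. The median change over all 8 was 0.49, with a range from -0.74 to 1.54. Over all tested rows the median was -0.05, with quartiles at -0.25 and 0.18. All 8 genes were tested, and 7 of the 8 reached 1 FPKM in at least 1 condition. Zfp36l1 reached 1 FPKM in EtOH alone, and Btg3 in neither. Among tested rows of at least 1 FPKM, 12% were called higher and 10.6% lower. In each family the largest rise was that of a gene at a low level in 4OHT (Zfp36l1 and Btg2) with a pseudocount of 1. With a pseudocount of 5 the change of Zfp36l1 was 0.57, under those of Btg2 (0.93) and Zfp36 (0.87).

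**Figure D1:**
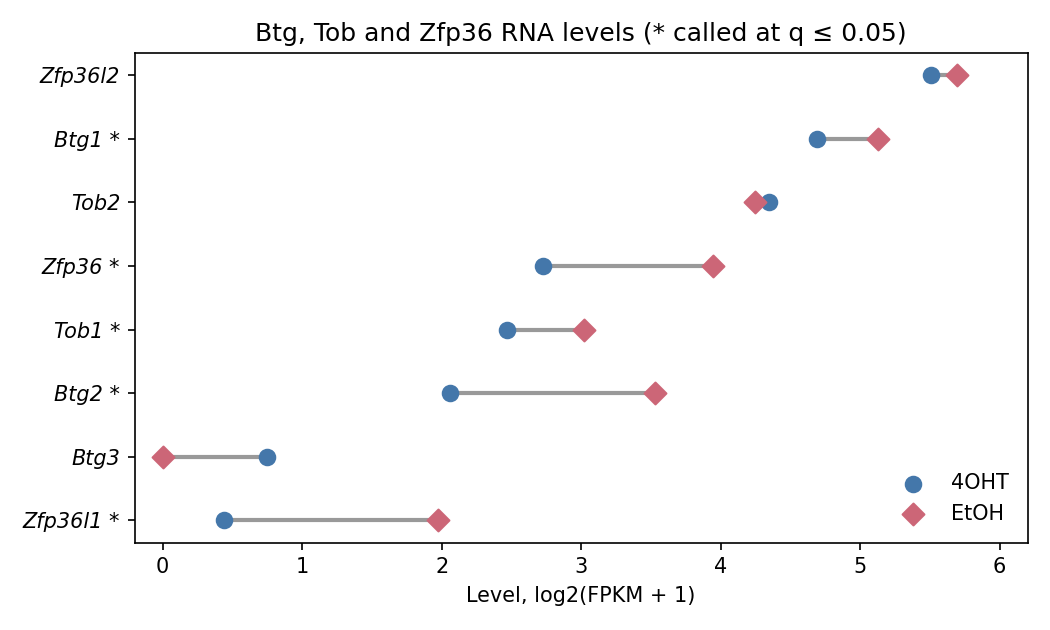
Level of each gene in 4OHT (circles) and EtOH (diamonds) as log2(FPKM + 1), with 1 value per condition and no replicate error, ordered by level. Stars mark the genes called by q-value in the authors' deposited table. The bars joining the conditions are longest for Zfp36l1, Btg2 and Zfp36, and short for the highest gene, Zfp36l2.

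The AU-rich element recognised by Zfp36 proteins is present in the mRNAs of all 3 Zfp36 genes themselves. Its core was searched as the nonamer TTATTTATT in the longest annotated 3' UTR of each gene (GENCODE M21, mouse build GRCm38). Each Zfp36 gene held 1 nonamer and 3 copies of the shorter heptamer TATTTAT, which each nonamer contains. The windows below run 5' to 3' on the transcribed strand, which is the minus strand for all 3 genes, with the nonamer in capitals. They lie at chr7:28376953-28376977, chr12:80108169-80108193 and chr17:84184916-84184940, in that order.
Zfp36: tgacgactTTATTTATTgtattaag
Zfp36l1: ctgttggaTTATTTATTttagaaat
Zfp36l2: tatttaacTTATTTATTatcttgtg

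None of the 5 Btg and Tob genes held a nonamer: the count was 0 in each. Btg3 held 2 heptamers, Btg2 and Tob2 held 1 each, and Btg1 and Tob1 held 0. A 3' UTR was found for 11041 tested rows, or 93.1%, of which 8.04% held a nonamer, 29.3% a heptamer and 3.72% at least 3 heptamers. The 3' UTR searched was 774 bases long in Zfp36, 1835 in Zfp36l1 and 1822 in Zfp36l2, against 4166 in Btg1, 2199 in Btg2, 439 in Btg3, 767 in Tob1 and 2457 in Tob2. The median over tested rows was 1112 bases. The nonamer was thus absent from the longest of these 3' UTRs, that of Btg1.

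The stretches just before the start of the 3 genes with the largest changes are shown for the short motifs in them. The 250 bases upstream of each start come from RefSeq on GRCm38.p6 and are on the gene's strand, which is minus in all 3. Capitals mark matches to motifs, which may overlap each other. The core of the TATA box, TATAAA, was searched on the gene's strand and all others on both. The AP-1 motif was searched as TGANTCA. The Egr1 motif was searched as GCGGGGGCG. The cAMP response element was searched whole, as TGACGTCA, and by its shorter part ACGTCA. The CCAAT box was searched as spelled and the serum response element by its consensus. They lie at chr1:134079156-134079405 for Btg2, chr7:28379229-28379478 for Zfp36 and chr12:80113014-80113263 for Zfp36l1.
Btg2: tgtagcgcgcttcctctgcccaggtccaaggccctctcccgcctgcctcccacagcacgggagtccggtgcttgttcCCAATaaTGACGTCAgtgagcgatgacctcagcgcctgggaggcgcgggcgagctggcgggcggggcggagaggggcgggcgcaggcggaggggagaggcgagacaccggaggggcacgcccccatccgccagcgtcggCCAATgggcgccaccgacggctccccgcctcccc
Zfp36: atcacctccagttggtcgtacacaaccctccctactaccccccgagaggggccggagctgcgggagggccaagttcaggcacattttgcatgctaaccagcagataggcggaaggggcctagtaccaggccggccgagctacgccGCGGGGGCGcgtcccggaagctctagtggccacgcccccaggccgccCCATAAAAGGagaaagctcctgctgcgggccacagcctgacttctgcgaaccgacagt
Zfp36l1: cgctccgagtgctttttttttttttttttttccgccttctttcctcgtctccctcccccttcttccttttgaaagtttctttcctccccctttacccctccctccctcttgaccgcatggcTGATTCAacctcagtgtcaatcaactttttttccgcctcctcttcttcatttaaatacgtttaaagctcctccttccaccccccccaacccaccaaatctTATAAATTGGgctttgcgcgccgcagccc

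The Btg2 window held a full cAMP response element 166 bases before the start, a match present in 1.55% of 32851 RefSeq promoter windows of the same length. The Zfp36 window held an Egr1 match 105 bases and a serum response element 58 bases before the start, with 2.57% and 1.47% of all windows holding 1. The Zfp36l1 window held an AP-1 match 129 bases before the start, as 6.75% of windows did, and a TATA box core at 29 bases. A TATA box core was found in 7.59% of all windows and in those of Btg1, Tob1 and Zfp36l1, which are 3 of the 7 genes with an entry. The shorter part, ACGTCA, was found in 2 of the 7, Btg1 and Btg2, and in 6.47% of all windows. The GC box GGGCGG, which is not in capitals, was found in 6 of 7 and in 32.7% of all windows, and CCAAT in 5 of 7 and in 33.8%. Neither the Pbx-Hox sequence TGATTNAT nor the Meis sequence TGACAG matched in any of the 7, against 2.82% and 15.9% of all windows. GC content was 73.2% in the Btg2 window, 64.8% in that of Zfp36 and 48.4% in that of Zfp36l1, beside a median of 52.4% over all windows. These matches are letters in a window and say nothing about binding. No promoter entry was found for Zfp36l2.

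The Zfp36 family held the gene with the largest ratio of the 8, Zfp36l1, and also the one of highest level, Zfp36l2. Zfp36l1 lies at chr12:81208747-81214000 on mm9, the build of the deposited table. It was at 0.355 FPKM in 4OHT and 2.93 FPKM in EtOH, a ratio of 8.26 and a change of 1.54 on the log2(FPKM + 1) scale, or 3.05 with no pseudocount. Its q-value in the authors' deposited table was listed as 0, as it was in 341 tested rows. It went from near the bottom of the measured range, above 2.96% of tested rows, to above 22.0% of them, and 96.4% of tested rows changed less in either direction. Of the 8 genes it was the lowest in 4OHT and the last but one in EtOH.

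Zfp36, at chr7:29161803-29164247, encodes tristetraprolin, which limits TNF in myeloid cells. Its level was 5.61 FPKM in 4OHT and 14.4 FPKM in EtOH, a ratio of 2.57 and a log2 change of 1.22 (q = 6.19e-09 in the authors' deposited table). Of all tested rows, 94.9% changed less in either direction. Zfp36l2, at chr17:84583269-84587287, is needed for blood stem cells in mice. It was the highest of the 8 in both conditions, at 44.5 FPKM in 4OHT and 50.9 FPKM in EtOH, which put it above 84.2% and 86.1% of tested rows. Its ratio of 1.14 did not pass (q = 0.401 in the authors' deposited table).

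The make-up of the family changed through its low members. The 3 Zfp36 genes summed to 50.5 FPKM in 4OHT and 68.2 FPKM in EtOH, a ratio of 1.35. Zfp36l2 made up 88.2% of the sum in 4OHT and 74.6% in EtOH. The share of Zfp36 was 11.1% and then 21.1%, and that of Zfp36l1 0.703% and then 4.30%. Even after its rise, Zfp36l1 thus remained a small part of the family's mRNA, and Zfp36l2 supplied most of it in both conditions.

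**Figure D2:**
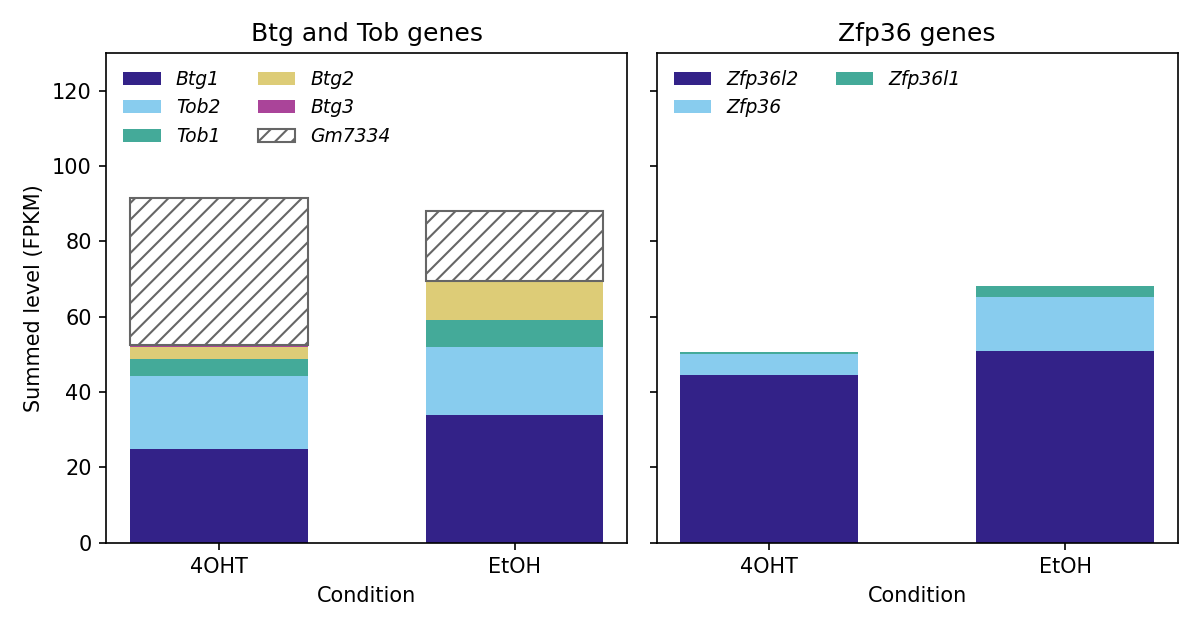
Stacked bars of the FPKM of the Btg and Tob genes (left) and of the Zfp36 genes (right) in 4OHT and EtOH, 1 value per gene and condition. The hatched blocks add Gm7334, a pseudogene row at the locus of Btg3 whose sequence lies within Btg3 transcripts. Without it both sums are higher in EtOH (ratios 1.32 and 1.35), and with it the Btg and Tob ratio is 0.96.

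Among the Btg and Tob genes, Btg2 changed most. Btg2 lies at chr1:135971442-135975732 and was at 3.17 FPKM in 4OHT and 10.5 FPKM in EtOH. That is a ratio of 3.32 and a log2 change of 1.47, with a q-value listed as 0 in the authors' deposited table. It stood above 23.4% of tested rows in 4OHT and above 49.0% in EtOH, so it moved from the low end to near the middle of the tested levels. In the order of the 8 it passed Tob1.

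Btg1, at chr10:96079635-96085445, is an antiproliferative gene often mutated in lymphoid malignancies. It was at 24.8 FPKM in 4OHT and 33.9 FPKM in EtOH, a ratio of 1.37 and a log2 change of 0.44, with q = 0.012 in the authors' deposited table. Tob1, at chr11:94072768-94076806, encodes a protein that binds both poly(A)-binding protein and the Caf1 deadenylases. It was at 4.53 FPKM in 4OHT and 7.10 FPKM in EtOH, a ratio of 1.57 and a log2 change of 0.55, with q = 0.0241 in the authors' deposited table. Of all tested rows, 75.8% changed less than Btg1 in either direction and 82.8% less than Tob1. Both calls depended on the threshold. With q of 0.01 or less required, which 9.41% of tested rows met as higher, 3 of the 8 genes were called and Btg1 and Tob1 were not. With a ratio of at least 1.5 required beside q of at most 0.05, which 9.89% of tested rows met as higher, 4 were called and Btg1 was not.

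Tob2, at chr15:81678700-81688756, is the close relative of Tob1. It was at 19.3 FPKM in 4OHT and 18.0 FPKM in EtOH, a ratio of 0.929 that did not pass (q = 0.719 in the authors' deposited table). Tob2 was above Tob1 in both conditions. The sum of the 5 rows as listed was 52.5 FPKM in 4OHT and 69.5 FPKM in EtOH, a ratio of 1.32, and Btg1 was the largest part of it at 47.2% and 48.8%. This sum takes Btg3 as listed. With the pseudogene row Gm7334 at the same locus it was 91.6 and 87.9 FPKM, a ratio of 0.96, so its direction turns. Btg1 was then 27.1% and 38.6% of it, and Gm7334, at 39.0 FPKM in 4OHT, was above Btg1 in that condition. Of the sum as listed, Tob2 made up 36.8% and then 25.8%, Tob1 8.62% and then 10.2%, and Btg2 6.04% and then 15.1%. Among the listed rows the share of Tob2 was thus lower in EtOH and that of Btg2 higher. All 8 rows together summed to 103 FPKM in 4OHT and 138 FPKM in EtOH, a ratio of 1.34, or 1.10 with Gm7334 added.

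Btg3, at chr16:78360105-78377030, shares part of its sequence with a pseudogene listed at the same locus, and its level is uncertain. It was listed at 0.675 FPKM in 4OHT and at 0 in EtOH, and it did not pass (p = 0.0662 and q = 0.196 in the authors' deposited table). No fold is given against a value listed at 0. The deposited table gave the same locus to Gm7334, a transcribed pseudogene, at 39.0 FPKM in 4OHT and 18.4 FPKM in EtOH, a log2 change of -1.05. That row was marked as having too little data, as were 152 rows in all, and was not tested. All 707 of the 50-base words of Gm7334 (100%) also occur in Btg3 transcripts of GENCODE M21, and 18.1% of the words of Btg3 occur in other genes. Reads of the 2 rows cannot be told apart over the shared sequence, and the rest of Btg3 is its own. The rows together summed to 39.7 FPKM in 4OHT and 18.4 FPKM in EtOH, a ratio of 0.463. In the other 7 genes at most 3.13% of words were shared with another gene.

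**Figure D3:**
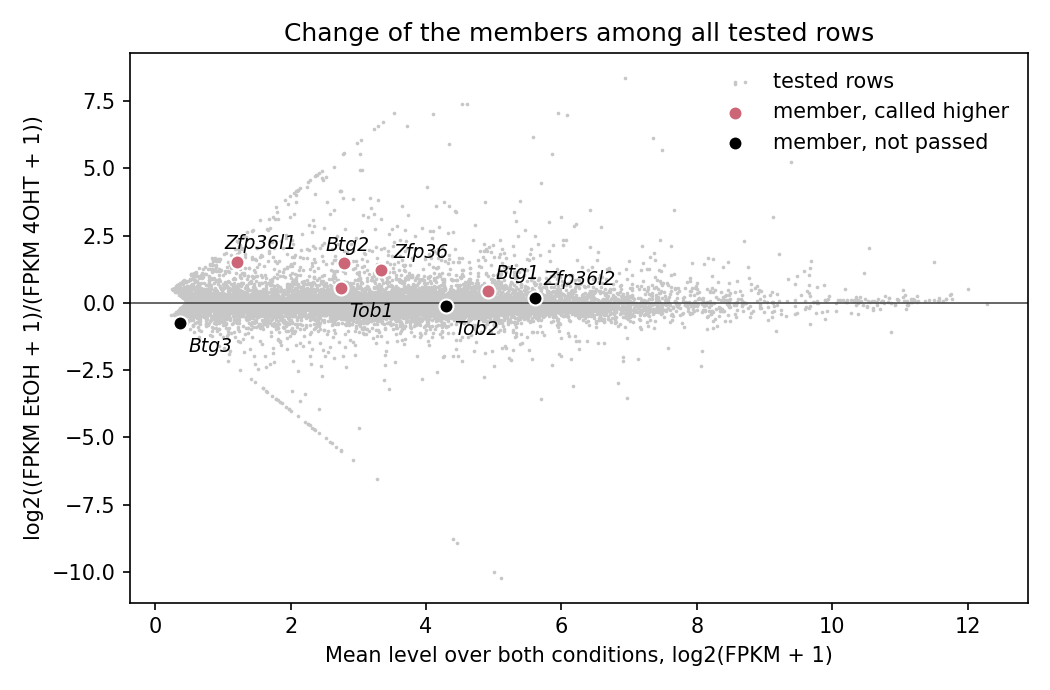
Change, log2((FPKM EtOH + 1)/(FPKM 4OHT + 1)), against mean level, log2(FPKM + 1), for the 11865 tested rows (grey) and the 8 genes (red where called higher, black where not passed). The called genes lie above the line at 0, the 3 with the largest changes at mean levels under those of Btg1 and Zfp36l2.

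The depth behind the levels differed widely among the 8 genes. FPKM values do not give read totals, but in genes with 1 annotated transcript FPKM multiplied by length fell into steps. The first step was at 0.0215 in 4OHT (the median of 147 genes) and at 0.0232 in EtOH (148 genes), and the second step was 1.97 and 1.95 times as high. If 1 step is 1 fragment, the level of Zfp36l1 came from some 49.3 fragments in 4OHT and 377 in EtOH. The levels of Btg2 rested on some 404 and 1242 fragments, those of Tob1 on 481 and 699 and those of Zfp36 on 727 and 1731. Tob2 had the fewest of the other 3 well-measured genes, with 3730 and 3209. Btg3 had the fewest, 44.4 in 4OHT and 0 in EtOH, but reads it shares with Gm7334 may be listed under that row. The level of Zfp36l1 in 4OHT is thus the least precise of the 5 called genes. These counts cover counting error alone, and fragments shared between copies of a sequence are included. They use GENCODE M21 transcript lengths, which may differ from those behind the FPKM values. That of Zfp36, 2790 bases, is longer than its deposited locus of 2445 bases, so its counts are likely too high.

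Markers of granulocytes rose beside the 8 genes, and their part in the results was not tested. All 10 of 10 neutrophil markers, 6 of 7 eosinophil markers and 8 of 8 basophil and mast cell markers were called higher in the authors' deposited table. Of all tested rows 12% were called higher and 10.5% lower. The summed FPKM of the neutrophil list was 231 in 4OHT and 16490 in EtOH, that of the eosinophil list 134 and 4693, and that of the basophil and mast cell list 826 and 3695. Monocyte and macrophage markers were mixed, with 4 higher and 1 lower of 6 measured and sums of 264 and 189. Of the 4 called higher, Csf1r and Mrc1 reached 1 FPKM in EtOH alone, so the filter favours markers that rose. Without the filter on level 5 of the 7 tested were called higher and 1 lower. Of the progenitor markers 4 of 9 were higher and 2 lower, with sums of 594 and 672. Cd33 rose from 22.5 to 92.7 FPKM, Gata2 from 71.1 to 122 FPKM, Ptprc from 33.9 to 64.5 FPKM and Spn from 103 to 166 FPKM. Cd34 fell from 124 to 45.8 FPKM and Flt3 from 14.5 to 0.239 FPKM, whereas Kit (7.39 and 10.1 FPKM) did not pass. The B, T and NK cell list summed to 0.0613 and 0.295 FPKM, with Pax5, Ms4a1, Cd3e, Cd3g and Cd4 at 0 in both. None of its 10 genes reached 1 FPKM, so the lymphocyte lists give a measured level near 0 in both conditions. Of the erythroid and megakaryocyte markers 0 of 5 measured were higher and 2 were lower, with sums of 106 and 93.7. Epor, 1 of the 5, reached 1 FPKM in EtOH alone. Klf1, under the filter, was called higher (0.310 to 0.935 FPKM, q = 0.0202 in the authors' deposited table). Without the filter this list's median was 0.12 in place of -0.07. Of the stromal and endothelial markers 1 of 2 measured was lower, with sums of 252 and 238 and Col3a1 at 0. In bulk RNA, fewer cells of a type and less RNA per cell cannot be told apart.

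The rows nearest to the 2 genes with the largest changes were found by Euclidean distance in log2(FPKM + 1) over the 2 conditions. Among the 3 nearest to Zfp36l1 were Tigit, a lymphocyte receptor, at 0.462 and 2.87 FPKM (distance 0.112), and Clec4n, a myeloid lectin receptor, at 0.452 and 2.75 FPKM (0.122). Nearest to Btg2 were Dusp1 at 3.21 and 9.76 FPKM (0.1002), Rgs2 at 3.32 and 11.3 FPKM (0.108) and Lmna at 2.86 and 10.3 FPKM (0.117). Dusp1 encodes a phosphatase of p38 and other MAP kinases, Rgs2 a regulator of G protein signalling and Lmna a nuclear lamin. With 2 points per gene this likeness says no more than that the levels are close.

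The nearest measured rows on the chromosome did not follow one pattern. They were taken among rows of at least 1 FPKM in either condition. Chi3l1 beside Btg2 and Plekhg2 beside Zfp36 reached it in EtOH alone, so this choice favours neighbours that rose. Chi3l1, a granule protein of neutrophils, lies 103 kb from Btg2 and rose from 0.126 to 28.3 FPKM (q listed as 0 in the authors' deposited table). Actn1, an actin-binding protein, lies 54.5 kb from Zfp36l1 and rose from 2.66 to 23.4 FPKM (q listed as 0 in the authors' deposited table). On their other sides, Atp2b4 (log2 change -0.31) and Rad51l1 (-0.40) did not pass. The neighbours of Zfp36, Plekhg2 at 4.12 kb (0.16) and Med29 at 6.02 kb (-0.38), did not pass either. The same was so for Spag9 (-0.07) and Luc7l3 (0.00) beside Tob1, for Tef (-0.17) and Phf5a (-0.14) beside Tob2 and for Usp25 (0.23) and D16Ertd472e (-0.24) beside Btg3. Beside Zfp36l2, Haao rose from 10.4 to 18.2 FPKM (q = 0.00139) and Thada fell from 5.60 to 3.84 FPKM (q = 0.0112) in the authors' deposited table. Beside Btg1, Eea1 (0.08) did not pass and Atp2b1, 2292 kb away, fell from 18.4 to 13.2 FPKM (q = 0.00795 in the authors' deposited table). Zfp36 and Tob1 thus rose between neighbours that did not pass.

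The CCR4-NOT complex, which both families recruit, had no called gene, where 22.5% of all tested rows were called. By the authors' Cuffdiff test 0 of its 10 genes were called in either direction, 0 of them had an unadjusted p-value under 0.05, and their median change was -0.05, the same to 2 decimals as that of all tested rows. Their FPKM summed to 274 in 4OHT and 261 in EtOH. The direct BTG and TOB contact Cnot7 was at 29.9 and 33.0 FPKM, Cnot8 at 33.2 and 32.0 FPKM and the scaffold Cnot1, which Zfp36 binds, at 35.2 and 30.9 FPKM. The median was 0.01 with EtOH scaled so that the median log2 ratio of rows of at least 5 FPKM is 0. The largest change in either direction was the -0.31 of Cnot11 (listed as D1Bwg0212e).

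Other deadenylases included 3 that fell of 7 measured, with 0 higher and a median of -0.17. For these and the next 2 lists, the shares over all measured rows were 12% called higher and 10.6% lower. Pan3, which recruits the Pan2 deadenylase to poly(A)-binding protein, fell from 35.1 to 13.8 FPKM (log2 change -1.28), while Pan2 itself was at 7.03 and 8.31 FPKM and did not pass. At q of 0.01 or less the call of Pan3 alone held. Parn, a poly(A)-specific ribonuclease, fell from 14.5 to 10.6 FPKM (q = 0.049) and Angel1 from 1.89 to 1.10 FPKM (q = 0.0349) in the authors' deposited table. Of the decapping and 5'-3' decay genes 0 of 20 were called in Cuffdiff, 1 had an unadjusted p-value under 0.05 (Lsm7, lower) and the median was -0.07. The exonuclease Xrn1 was at 5.77 and 5.76 FPKM and the decapping enzyme Dcp2 at 11.0 and 12.0 FPKM. Of the RNA exosome and its cofactors, which digest from the 3' end, 3 of 16 fell and 0 rose, with a median of -0.27. They were Exosc1 (21.1 to 14.3 FPKM), Exosc2 (31.4 to 22.4 FPKM) and the Ski complex member Ttc37 (7.66 to 5.33 FPKM). All 3 exosome calls were lost, leaving 0, at q of 0.01 or less and also with a ratio of 1.5 required. So no gene of these 4 lists rose.

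The remaining decay lists were likewise without a called rise. Of tested rows of at least 1 FPKM, 12% were called higher and 10.6% lower. The falls of 1 of 10 microRNA genes and 2 of 19 other 3' UTR binding proteins lie near the latter share. Of 8 poly(A)-binding proteins and partners 3 fell, with a median of -0.25: Gspt2 (2.75 to 0.685 FPKM) and Gspt1 (36.9 to 26.4 FPKM), translation termination factors, and Paip2b (15.96 to 11.3 FPKM), an inhibitor of poly(A)-binding protein. Of these 3 the call of Gspt2 alone held under each stricter rule. Pabpc1, the main cytoplasmic poly(A)-binding protein, was at 728 and 671 FPKM and did not pass. Of 10 measured microRNA silencing genes 1 fell, Ago1 (listed as Eif2c1), from 8.53 to 6.001 FPKM, a call lost under each stricter rule, and the median was -0.06. Of 10 nonsense-mediated decay genes, 9 of them tested, 0 were called in Cuffdiff and 0 had an unadjusted p-value under 0.05. Their median was -0.01, and it was 0.05 under the median scaling. Of 19 other 3' UTR binding proteins 2 fell, with a median of -0.15. They were Celf1 (21.1 to 14.4 FPKM), which promotes decay of GU-rich mRNAs, and Elavl1 (17.6 to 13.2 FPKM, q = 0.0315 in the authors' deposited table), which binds AU-rich sequences and stabilises mRNAs. The other AU-rich binders Hnrnpd (35.7 and 31.3 FPKM) and Khsrp (49.0 and 39.3 FPKM) did not pass. The call of Elavl1 was lost under each stricter rule and that of Celf1 with a ratio of 1.5 required, whereas the calls of Zfp36 and Zfp36l1 held under each.

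**Figure D4:**
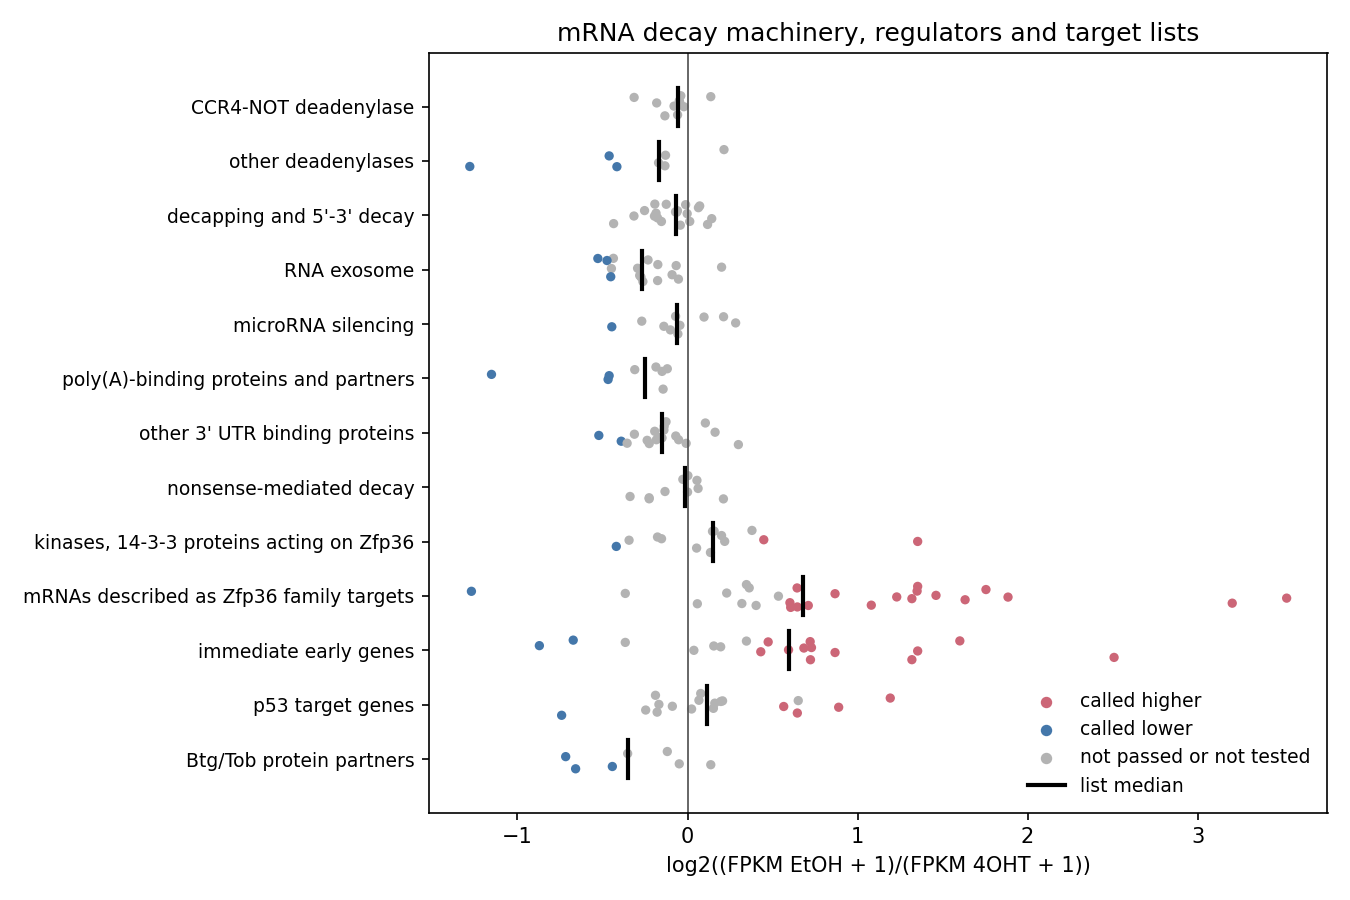
Change, log2((FPKM EtOH + 1)/(FPKM 4OHT + 1)), of each gene of at least 1 FPKM in either condition, by list, red where called higher and blue where called lower in the authors' deposited table, with the list median as a black bar. The medians of the target and immediate early lists are 0.68 and 0.59, and those of the lists of decay enzymes lie between -0.27 and -0.01.

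Zfp36 activity is known to be controlled by p38 and its kinase MK2 (Mapkapk2), whose phosphorylation lets 14-3-3 proteins bind Zfp36. Of 13 such kinases, phosphatases and 14-3-3 proteins 2 rose and 1 fell, with a median of 0.15, where 12% of measured rows were called higher and 10.6% lower. Dusp1, which switches p38 off, rose from 3.21 to 9.76 FPKM (log2 change 1.35) and Mapkapk3 from 75.8 to 104 FPKM. The 14-3-3 gene Ywhaq fell from 105 to 78.6 FPKM. Mapk14 (p38 alpha) was at 70.0 and 78.1 FPKM and Mapkapk2 at 94.2 and 108 FPKM, and neither passed. With a ratio of 1.5 required the call of Dusp1 alone held.

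Partners of the BTG and TOB proteins showed 3 called falls and 0 rises among 7 measured, with a median of -0.35. Of all measured rows 10.6% were called lower and 12% higher. Prmt1, an arginine methyltransferase that Btg1 and Btg2 bind, fell from 113 to 71.3 FPKM (q = 0.000217 in the authors' deposited table). Smad1 fell from 5.74 to 3.10 FPKM and Smad5 from 8.27 to 5.82 FPKM, both signal transducers of BMP receptors that Tob1 binds. The calls of Prmt1 and Smad1 held under each stricter rule and that of Smad5 did not.

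Btg2 is induced by p53 and by growth factor signals, so both groups were read beside it. Of 18 measured p53 targets 4 rose and 1 fell, with a median of 0.11, where 12% of measured rows were called higher and 10.6% lower. Those that rose were Trp53inp1 (3.21 to 8.62 FPKM), Pmaip1 (17.4 to 33.0 FPKM), Cdkn1a (63.2 to 99.5 FPKM) and Gadd45a (41.3 to 61.6 FPKM), and Aen fell from 17.5 to 10.1 FPKM. Mdm2 (26.4 and 30.4 FPKM) and Ccng1 (31.8 and 35.6 FPKM) did not pass. Of 19 measured immediate early genes 12 rose and 2 fell, with a median of 0.59. The largest rises were those of Egr3 (0.591 to 8.05 FPKM), Klf2 (6.17 to 20.8 FPKM), Dusp1 and Egr1 (23.0 to 58.8 FPKM). Dusp2 (21.2 to 11.2 FPKM) and Atf3 (3.41 to 1.77 FPKM) fell. Of the immediate early genes 3 reached 1 FPKM in EtOH alone (Fos, Egr2 and Egr3), 2 of them among the 12, and without the filter on level the list's median was 0.45. The lists were not tested against each other.

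The mRNAs that Zfp36 proteins are described to degrade were mostly higher in EtOH, the condition in which Zfp36 and Zfp36l1 had also risen. Of 34 such mRNAs 26 were measured at 1 FPKM or more. Of these 17 rose, beside 12% of all measured rows, 1 fell, beside 10.6%, and 8 did not pass. Their median was 0.68. Without the filter on level 28 were tested, with 17 higher and 1 lower again, and the median over all 34 was 0.57. With the filter and a pseudocount of 5 the median was 0.47. Of the 17, 4 reached 1 FPKM in EtOH alone (Il1a, Csf2, Cxcl2 and Ccl2). All 17 were called under each stricter rule. The largest rises were those of the cytokines Il1b (1.70 to 30.0 FPKM) and Il6 (20.03 to 193 FPKM), of Socs3, a feedback inhibitor of cytokine signalling (2.71 to 12.7 FPKM), and of Il1a (0.264 to 3.27 FPKM). Bcl2, an inhibitor of apoptosis, fell from 25.5 to 9.96 FPKM (log2 change -1.27). Tnf, the classical target of Zfp36, was at 2.88 and 4.62 FPKM and did not pass (q = 0.0665 in the authors' deposited table). The list shares 5 genes with the immediate early list and 7 with any other list. Among the 20 measured genes in no other list 13 rose and 1 fell, with a median of 0.68. The list was chosen with earlier results of these data known, so its direction is not independent evidence.

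Within the list, the measured targets with a nonamer in the 3' UTR had the lower median. Among 14 measured targets with at least 1 nonamer 7 rose and 1 fell, with a median of 0.57, and among 12 with 0 nonamers 10 rose and 0 fell, with a median of 1.39. Before the filter on level the groups held 18 and 16 targets. Csf2, Cxcl2 and Fos in the former and Il1a and Ccl2 in the latter reached 1 FPKM in EtOH alone. The filter thus favours targets that rose in both groups. Tnf holds 5 nonamers, Csf2 and Cxcl2 hold 4 each, and Il1b and Il6 hold 0. Of the measured targets with 0 nonamers, Ier3 held 4 heptamers, Il1a, Il1b and Mcl1 3 each, Socs3 2 and Il6 and Ccl3 1 each. Ccl2, Myc, Ccnd3, Cdkn1a and Egr1 held 0 heptamers. The split is thus by the nonamer and does not part targets with AU-rich sequences from those without. Over all tested rows of at least 1 FPKM with a 3' UTR, the median was -0.06 for 9489 rows with 0 nonamers, -0.04 for 644 rows with 1, -0.07 for 114 rows with 2 and -0.12 for 71 rows with 3 or more. The share called higher was 12.5%, 12.6%, 14.04% and 9.86%, and the share called lower 11.0%, 9.63%, 17.5% and 21.1%, in the same order. Rows with more nonamers had longer 3' UTRs, with medians of 1041, 2169.5, 2775 and 2929 bases. In 3' UTRs of 1000 to 1999 bases the median change was -0.05 both for 2394 rows with 0 nonamers and for 206 rows with at least 1. These rows were not tested against each other, and a steady-state level does not measure how fast an mRNA is degraded.

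**Figure D5:**
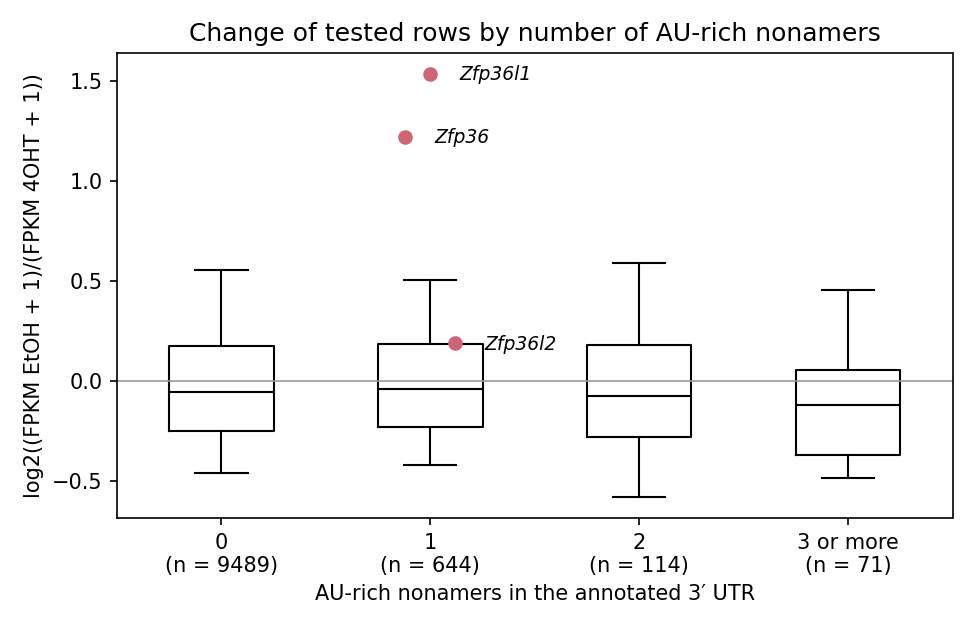
Change, log2((FPKM EtOH + 1)/(FPKM 4OHT + 1)), of tested rows of at least 1 FPKM by the number of AU-rich nonamers in the annotated 3' UTR. Boxes show the quartiles and median, whiskers the 10th and 90th percentiles, and points the 3 Zfp36 genes, which hold 1 nonamer each. The 4 medians lie between -0.12 and -0.04, and Zfp36l1 and Zfp36 lie above the 90th percentile of their box.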

How the data were processed

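RNA was sequenced from mouse bone marrow progenitors with Hoxa9-ER and Meis1 in 2 conditions, 4OHT and EtOH, at 1 value each. RNA was column-purified with DNase and a TruSeq RNA kit was used, per the labels' protocols. Cuffdiff 2.0.2, Bowtie2 2.0.0.7, CASAVA 1.8.2 and the mm9 build are named by the submitters' processing notes. The annotation, strand setting and scaling were not stated in the sources read here.

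Per the file headers, the authors gave FPKM values, p-values and q-values and a ratio of EtOH over 4OHT for 23235 rows. Since FPKM is a share of a library, abundant RNAs that rise lower the other values. The deposited table's smallest q-value above 0 is 7.4e-15. The authors' ratio was used for the calls at 1.5-fold alone.

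Changes used a pseudocount of 1 FPKM, and list counts took genes with 1 FPKM or more in at least 1 condition. The 8 genes and 22 lists with 279 entries (275 matched, 9 by older symbol) were chosen with earlier results of these data known. From each list up to 4 called genes with the largest change were to be named, with the neighbours of each of the 8 genes and the 3 nearest rows, of which 1 is not reported here. Other list members, the motif and 3' UTR counts, the length band and the depth steps (windows of 0.016 to 0.03 and 0.035 to 0.052) were chosen after values were seen. Coordinates of genes are on mm9 with starts counted from 1, and those of sequences on GRCm38, with no conversion between them. Alternatives were pseudocounts of 0.1 and 5, filters of 0 and 5 FPKM, 2 scalings and 2 stricter calls, and sums with Gm7334 were added after seeing the data. Python 3.11.15, numpy 2.4.6, pandas 2.3.3 and matplotlib 3.10.9 were used. The change measure alone was tested on simulated data. Its simulated 4OHT levels were at least 5 FPKM, above those of Zfp36l1, Btg3, Btg2 and Tob1.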

Additional observations from a re-analysis of the deposited data

How the results depend on the processing

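With q of 0.01 or less required in the authors' deposited table, the genes called numbered 3 of the 8 in place of 5, Btg1 and Tob1 being lost. The median change of the 8 genes, 0.49 on the log2 scale, was 0.37 with a pseudocount of 5 and 0.38 when the EtOH values were scaled to the same FPKM total as 4OHT, a scaling that moved the median of all rows by -0.10, to -0.16. It was 0.54 with a pseudocount of 0.1 and 0.56 with the median scaling. No called gene of the 8 changed sign under any of these, but none could have. A pseudocount cannot change a sign. The 2 scalings were -0.12 and 0.07 on the log2 scale, smaller than the smallest called change, 0.44 for Btg1. Stricter calls took away all 3 falls of the exosome list and all but 1 of those of the poly(A)-binding list. The change of Zfp36l1 depended most on the pseudocount among the called genes, at 2.74 with 0.1 and 0.57 with 5, against 1.70 and 0.93 for Btg2 and 1.35 and 0.87 for Zfp36. Of 78 medians recomputed over the 13 measured lists other than cell markers, 55 both kept their sign and moved by less than 0.1. The 2 of these 78 that changed sign were those of the CCR4-NOT (0.01) and nonsense-mediated decay (0.05) lists under the median scaling. This count leaves out the marker lists. Without the filter on level the erythroid and megakaryocyte median turned from -0.07 to 0.12 and the stromal and endothelial median went from -0.88 to 0. With a filter of 5 FPKM the monocyte and macrophage median was 0.39 in place of 1.21. No paired analysis was possible because each condition has 1 value, and for the same reason no replicate could be left out. With Gm7334 added, an alternative chosen after seeing the data, the summed ratio was 0.96 in place of 1.32 for the Btg and Tob genes and 1.10 in place of 1.34 for all 8. Of the called genes, depth limits the level of Zfp36l1 in 4OHT most. The low level of Btg3 cannot be read as depth, because reads of its shared sequence cannot be told apart from those of Gm7334.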
